A study of Mus musculus with 6 samples.

Results

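The transcripts described here encode the nuclear subunits of the mitochondrial respiratory chain and of ATP synthase, grouped by complex. They were chosen by name: every gene whose platform symbol starts with Ndufa, Ndufb, Ndufc, Ndufs, Ndufv (not the assembly factors Ndufaf), Sdha to Sdhd, Uqcr, Cyc1, Cox4 to Cox8 or Atp5, and that has a probe set with this symbol alone. This gave 83 of 18193 genes, with 36 in complex I, 4 in complex II, 9 in complex III, 17 in complex IV and 17 in complex V, each represented by its brightest probe set over the 6 arrays. RNA came from the heart ventricles of 6 mice, all Rag2 knockouts, which make no mature T or B lymphocytes. Trex1 was wild type in 3 animals (Trex1 WT) and knocked out in the other 3 (Trex1 KO), as 3 pairs of littermates called A, B and C, each with 1 animal of either genotype. Trex1 is an exonuclease that degrades DNA in the cytosol. The Trex1 allele, the age of the animals and any cell type limit of the knockout are not stated in the sources read here.

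The respiratory chain passes electrons from NADH (through complex I) and succinate (through complex II) to ubiquinone, on to cytochrome c (through complex III) and finally to oxygen (through complex IV). Complexes I, III and IV pump protons across the inner mitochondrial membrane, and complex V, ATP synthase, uses their return to make ATP. Heart muscle is among the tissues richest in mitochondria, and most of its ATP comes from this pathway. Most subunits are encoded in the nucleus, and several subunits of complex IV exist as a widely expressed form and a heart and skeletal muscle form.

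Values are MAS5 signals, intensities on a linear scale that the authors had scaled to a common level for each array, and differences are Trex1 KO minus Trex1 WT on the scale log2(signal + 16). The 16 ventricular cardiomyocyte markers had mean signals from 14931 to 50796, while 2 of 9 skeletal muscle markers were bright enough to test, at mean signals of up to 132. Of the 16 ventricular markers 0 passed the test, and their median difference was -0.013. The Trex1 probe set, which the annotation shares with Atrip, gave signals of 714, 340 and 887 in the Trex1 WT arrays A, B and C and 9.45, 20.6 and 34.2 in Trex1 KO arrays A, B and C. The Actb 3' to 5' ratio, a measure of RNA integrity, was 2.09, 2.29 and 1.80 in the Trex1 WT arrays A, B and C, against 1.66, 1.60 and 1.68 in those of the knockouts (exact permutation p = 0.10, two-sided, the smallest that 3 against 3 arrays can give). Signals of 18S were 12811, 13708 and 924 for Trex1 WT and 2834, 1907 and 798 in Trex1 KO, in the same order of pairs. The Gapdh 3' to 5' ratio was 0.904, 0.925 and 0.850 in the Trex1 WT arrays A, B and C and 0.849, 0.885 and 0.841 in Trex1 KO. Each Trex1 KO value lay below that of its littermate, but the groups overlapped (exact permutation p = 0.20, two-sided). Since the Actb ratio was higher in every Trex1 WT array than in every Trex1 KO array, its part in the results and that of genotype cannot be told apart. Of the tested markers of other cells 0 of 7 endothelial, 0 of 7 fibroblast, 0 of 8 macrophage, 0 of 3 atrial, 0 of 2 adipocyte and 0 of 2 erythroid genes passed, with medians of -0.056, 0.16, 0.25, 0.34, 1.47 and 0.29. With littermate pairs as a block the macrophage receptor Cd163 was lower (-1.38, limma adjusted p = 0.00855, and 0.0504 without the block). In contrast 5 of the 8 macrophage markers were above 0 in all 3 pairs, against 13.1% of all tested genes. Among them C1qa (0.52) and Fcgr1 (0.73) were higher without overlap of the groups, against 5.06% of all tested genes. Of the 8 macrophage markers 1 was lower without overlap, against 5.83%, and 3 had differences below 0. The atrial marker Nppa, a natriuretic peptide gene, was higher with the block (16165 ± 4540 against 31458 ± 3918, limma adjusted p = 0.00886, and 0.126 without). The summed atrial signal was 11343, 19053 and 19378 for Trex1 WT and 28573, 30895 and 36237 for Trex1 KO, nearly all of it Nppa, whereas Myl7 reached at most 297 on any array and Sln lay below the filter on dim probe sets. The summed adipocyte signal was 210, 101 and 178 for Trex1 WT and 162, 211 and 969 for Trex1 KO. The part of these cells in the subunits' values was not tested.

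Signals of respiratory chain transcripts differed little between Trex1 WT and Trex1 KO hearts, in all 5 complexes. Of the 83 subunits 81 were bright enough to test, and 0 rose and 0 fell in the Trex1 KO hearts (limma with Benjamini-Hochberg adjustment, adjusted p under 0.05), where 0.312% of the 12808 tested genes were higher and 0.039% lower. Without adjustment 2 of the 81, or 2.47%, had p under 0.05, against 5.36% of all tested genes. The smallest limma adjusted p was 0.890, for Cox4i2. The counts were also 0 with littermate pairs as a block, where 0.625% of tested genes passed, and in eBayes without an intensity trend. The median difference was -0.046 over the 81 subunits and -0.024 over all tested genes. By complex it was -0.050 in I, -0.057 in II, -0.037 in III, -0.045 in IV and -0.045 in V, and the SD of the 3 pair medians within a complex ran from 0.099 in II to 0.12 in V. In a tissue sample fewer cells of a type and less RNA per cell cannot be told apart.

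**Figure D1:**
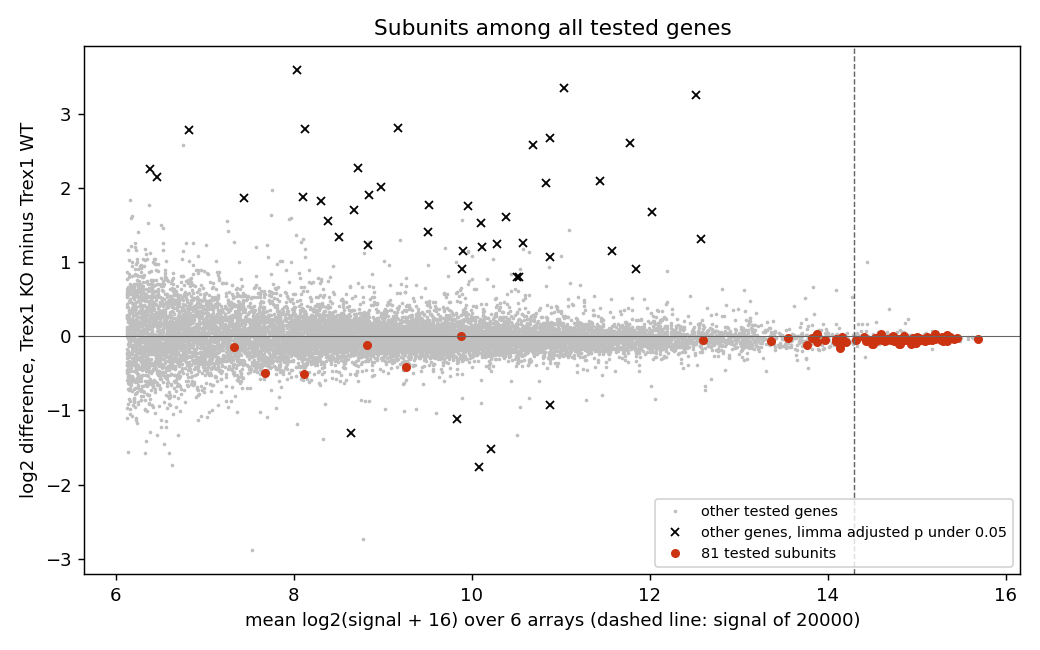
Each point is a tested gene, with its mean log2(signal + 16) over the 6 arrays on the horizontal axis and its log2 difference, Trex1 KO minus Trex1 WT, on the vertical axis; red points are the 81 tested subunits, crosses other genes with a limma adjusted p under 0.05, and the dashed line is a signal of 20000. The subunits above 20000 lie between -0.11 and 0.03 and none of the crosses is a subunit.

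The precision at these signals was high, which limits the size of a missed change in signal. Above a mean signal of 20000 lay 60 subunits, of which 25 belong to complex I, 2 to complex II, 9 to complex III, 9 to complex IV and 15 to complex V. Their differences ran from -0.11 for Atp5j to 0.03 for Ndufa10, and their standard errors from 0.090 to 0.13. The 95% intervals of all 60 (limma, unadjusted) lay between -0.39 and 0.27, or 0.765-fold and 1.20-fold. They describe the signal of the brightest probe set, each at 95%, and set no bound on the change in RNA. Among all tested genes 47.8% had an interval within 0.5 of 0, and among the 129 other genes with mean signals above 20000, 94.6%. At signals this high an array responds less than in proportion to the RNA, and how far that held here was not tested. The split left Ndufs1 (18809) and Ndufs5 (18361) just below and Uqcr10 (20423) and Ndufs3 (21667) just above.

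Of the 23 subunits at or below 20000, 15 had mean signals from 6196 to 18809 with differences from -0.16 (Ndufa6) to 0.03, a median of -0.062 and 95% intervals between 0.767-fold and 1.19-fold. The other 8 had mean signals below 1000, where intervals were wider, from 0.484-fold to 1.44-fold over the 6 that were tested. These 6 were Cox4i2, Cox6b2, Cox7c, Cox8c, Ndufa4l2 and Ndufb1, with a median of -0.28. The remaining pair lay below the filter on dim probe sets: Cox7b2, a testis form of a complex IV subunit, gave signals of 55.2, 66.4 and 7.50 in the Trex1 WT arrays A, B and C and 46.2, 22.9 and 31.1 in Trex1 KO, and Ndufb4 gave 42.9, 12.3 and 46.4 and 2.38, 29.5 and 42.5.

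**Figure D2:**
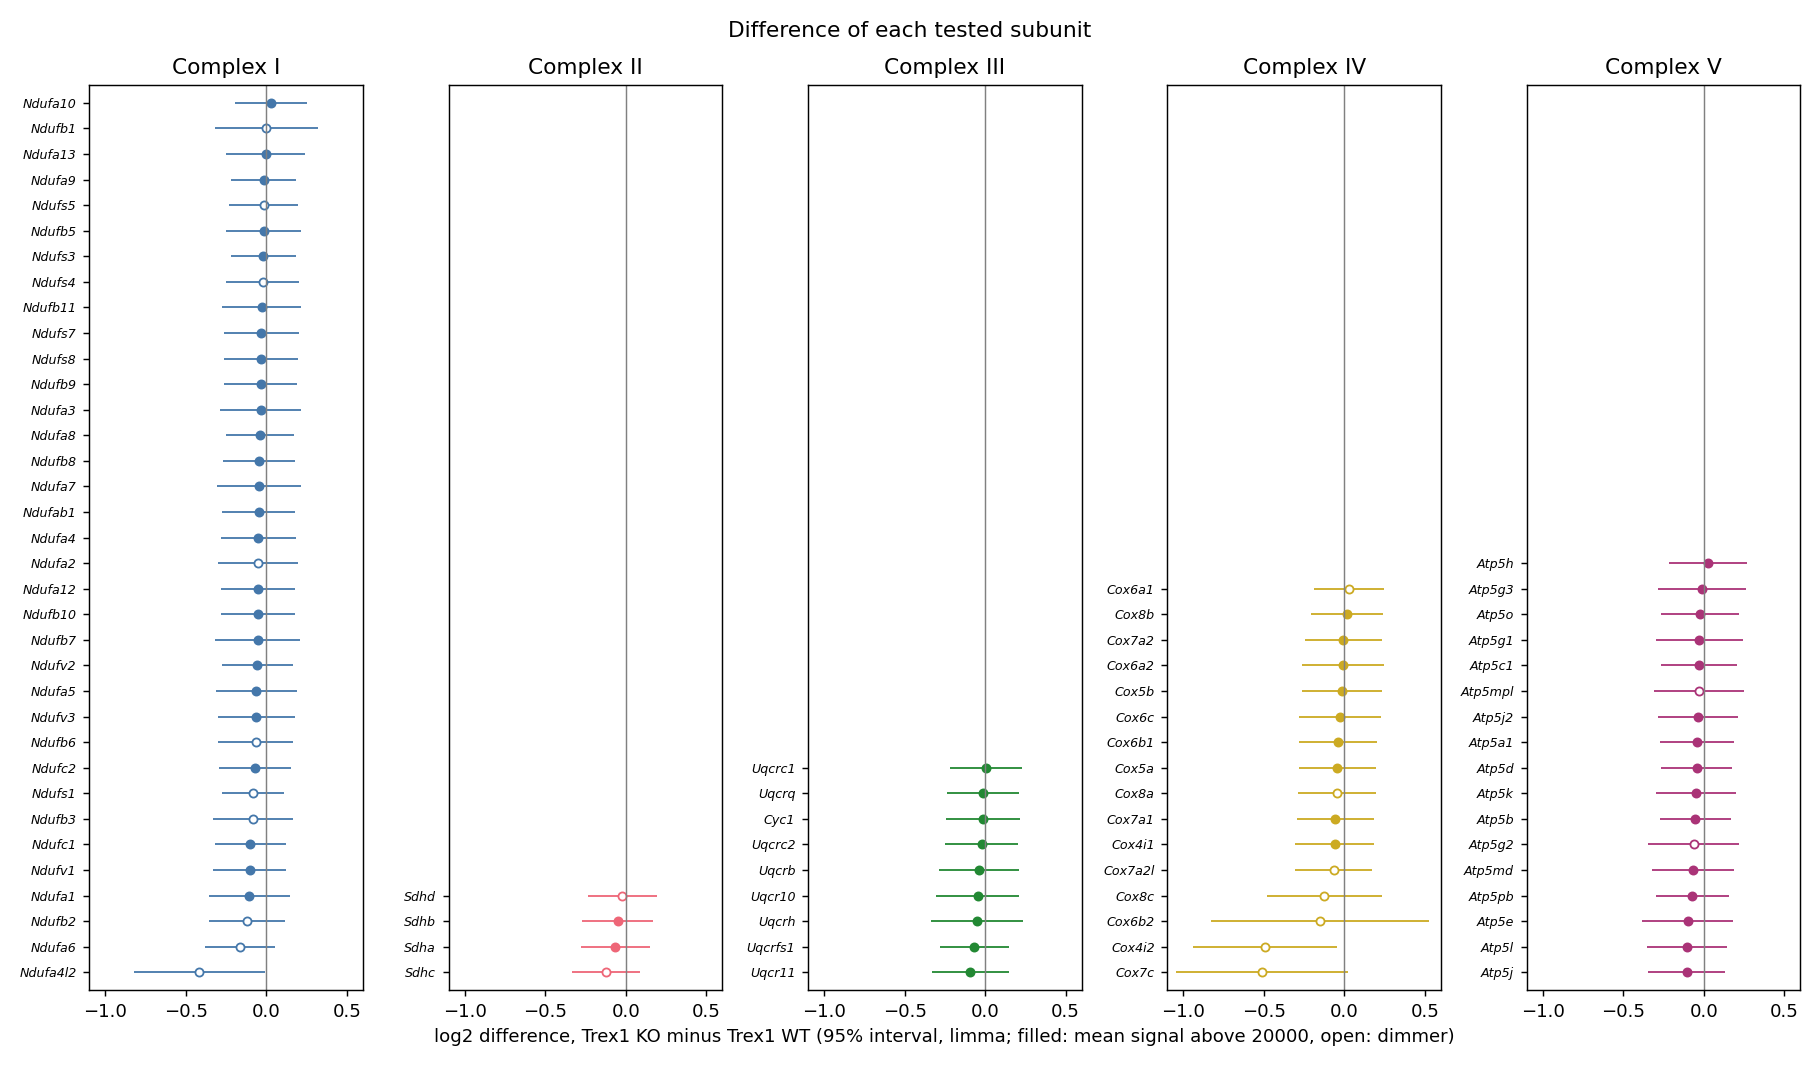
Log2 difference of each of the 81 tested subunits, Trex1 KO minus Trex1 WT, by complex, with 95% limma intervals as bars; filled points have a mean signal above 20000 and open points are dimmer. The intervals of 79 subunits include 0, and the exceptions are Cox4i2 and Ndufa4l2.

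Within the littermate pairs the bright subunits moved together, in directions that differed between pairs. Their median difference was 0.076 in pair A, -0.14 in pair B and -0.063 in pair C, and 52 of the 60 were higher in Trex1 KO in pair A and lower in pair B. That pattern held for 21.9% of all tested genes and for 68.2% of the 129 other genes above 20000, whose pair medians were 0.088, -0.11 and -0.034. By array, the median level of the 60 relative to each gene's own mean was -0.15, 0.11 and 0.11 in the Trex1 WT arrays A, B and C and -0.072, -0.046 and 0.049 in Trex1 KO arrays A, B and C. Trex1 WT A was the lowest array for 51 of the 60, and either Trex1 WT B (30) or Trex1 WT C (28) the highest for 58. The 129 other bright genes had medians of -0.15, 0.071 and 0.085 in Trex1 WT and -0.053, -0.036 and 0.062 in Trex1 KO, with Trex1 WT A lowest and Trex1 WT B and C highest here too. The 3 Trex1 WT arrays therefore spanned more than the 3 Trex1 KO arrays, which lay between them. After quantile normalisation, which gives every array the same distribution, the pair medians of the 60 subunits were -0.018, -0.0031 and -0.031.

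**Figure D3:**
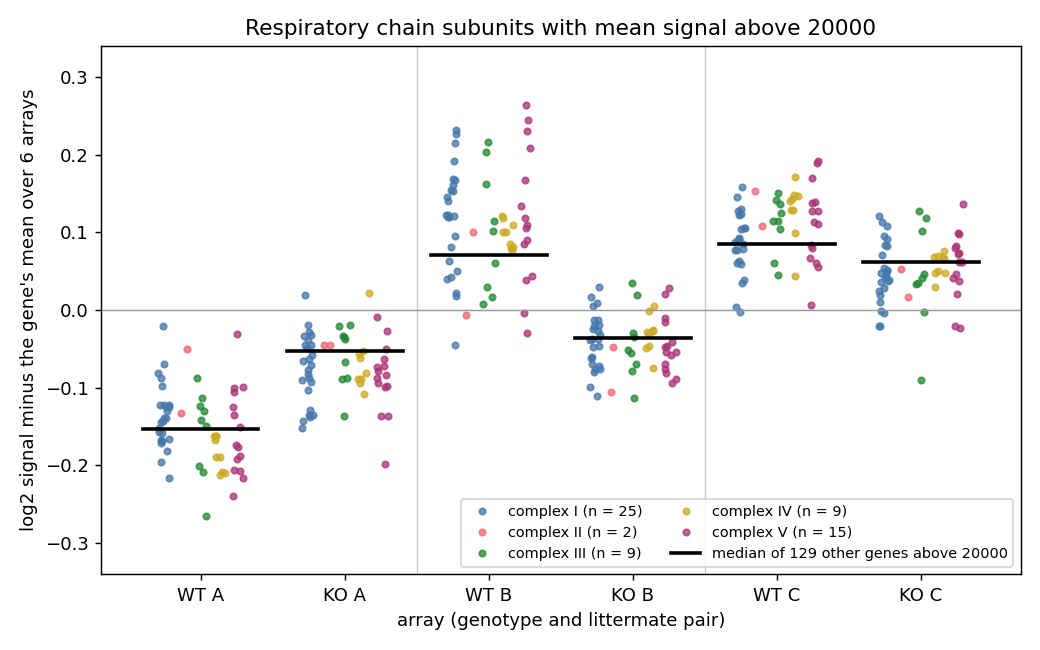
Log2 signal of each of the 60 subunits above 20000 minus its own mean over the 6 arrays, by array; colours give the complex and black bars the median of the 129 other genes above 20000. Subunits of all complexes sit low in WT A and high in WT B and WT C, as the black bars do.

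The summed signal of the 83 subunits was 5.13%, 5.75% and 5.79% of all signal in the Trex1 WT arrays A, B and C and 5.32%, 5.37% and 5.58% in Trex1 KO, so the Trex1 KO values lay within the range of Trex1 WT. The median over all subunits was -0.058 in a fit that included the Actb ratio. In total 75 of the 81 subunits, or 92.6%, had a difference below 0, against 55.5% of all tested genes and 70.5% of the other bright genes. The number was 63 after quantile normalisation and 78 with each array centred on its median, where 57% and 60.8% of all tested genes lay below 0. The median over the 81 was 0.0092 without pair B and 0.0054 without Trex1 WT B alone, so its sign rests on that array. It was -0.13 without Trex1 WT A.

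Over all 6 arrays, the shares of subunits that differed in the same direction in all animals lay near or below those of all tested genes. The Trex1 KO animals lay all below Trex1 WT for 3 of 81 subunits, or 3.7%, against 5.83% of all tested genes and 1.55% of the other genes above 20000, and all above for 0, against 5.06%. The 3 were Cox4i2, Ndufa6 and Ndufs1, none of them above 20000. The difference was below 0 in all 3 pairs for 13 subunits, or 16%, against 17.8% of tested genes and 6.98% of the other bright genes. It was above 0 in all 3 for 0 subunits, against 13.1% and 7.75%. These counts depended on Trex1 WT A: without it 46 of the 81 subunits (56.8%) lay lower in Trex1 KO without overlap, as did 10.8% of all tested genes and 30.2% of the other bright genes. The number of such subunits was 47 without pair A, 10 without pair C and 8 without Trex1 KO C. The shares over all tested genes in these 3 settings are not given here, and fewer animals make such separation easier. After quantile normalisation it was 8 of the 81, against 6.12% of all tested genes. These were Atp5j, Atp5l, Cox4i1, Cox4i2, Ndufa6, Ndufc1, Ndufv3 and Uqcr11. Without Trex1 WT C, 1 subunit lay higher in Trex1 KO, and the share over all tested genes is not given for this setting either. In none of these settings did a subunit pass the limma test.

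Complex I oxidises NADH, and the 35 tested genes grouped with it by their Nduf symbol had differences from -0.42 (Ndufa4l2) to 0.03. Apart from Ndufa4 and Ndufa4l2, these genes ran from -0.16 to 0.03. The 6 core subunits measured here, which carry the flavin and iron-sulphur centres or the path to quinone (Ndufv1, Ndufv2, Ndufs1, Ndufs3, Ndufs7 and Ndufs8), had a median of -0.044, and the 27 tested supernumerary subunits, which surround that core, -0.046. Ndufv1, the subunit that binds NADH and the flavin, gave signals of 23005, 23631 and 26048 in the Trex1 WT arrays A, B and C and 21214, 21608 and 24872 in Trex1 KO. Each Trex1 KO animal lay below its littermate, and the groups overlapped. The difference was -0.10 (SE 0.10, limma adjusted p = 0.959). Ndufs1, the largest iron-sulphur subunit, had signals of 19602, 18828 and 19567 in Trex1 WT and 18584, 17561 and 18712 in Trex1 KO, without overlap but by a small amount (-0.081, SE 0.086, limma adjusted p = 0.961). Ndufa6, a supernumerary subunit of the LYR family, had the smallest p of complex I above a signal of 1000. Its signals were 17750, 21087 and 18365 in Trex1 WT and 17148, 17382 and 16378 in Trex1 KO, with each Trex1 KO value below every Trex1 WT value. The difference was -0.16 (SE 0.098, 95% interval 0.767-fold to 1.04-fold, limma adjusted p = 0.955). Ndufb2 and Ndufc1, supernumerary subunits of the membrane arm, had differences of -0.12 and -0.098 (limma adjusted p = 0.956 and 0.959), and both had their highest value in Trex1 WT B.

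Ndufa4l2, a paralog of Ndufa4 that is known to be induced by hypoxia and to mark pericytes in mouse tissues, stood apart from the other genes with an Nduf symbol. Its signals were 520, 815 and 776 in the Trex1 WT arrays A, B and C and 493, 481 and 573 in Trex1 KO. The Trex1 KO animals were lower in all 3 pairs, with log2 differences of -0.075, -0.74 and -0.43, and Trex1 KO C lay above Trex1 WT A. The difference of -0.42 (SE 0.18) had an unadjusted p of 0.045 but missed the threshold (limma adjusted p = 0.904, with the block 0.503). Ndufa4 itself, named as a complex I gene but now assigned to complex IV, had a difference of -0.050 (SE 0.10, limma adjusted p = 0.979). Ndufb1, the only other tested gene with an Nduf symbol and a mean signal below 1000, had a difference of 0.0013 with 95% bounds of 0.803-fold and 1.25-fold.

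Complex II, succinate dehydrogenase, links the citric acid cycle to the chain, and all 4 of its subunits were measured. Sdha, the flavoprotein that oxidises succinate, gave 23011, 23716 and 26492 in the Trex1 WT arrays A, B and C and 23095, 22146 and 24724 in Trex1 KO. On this probe set the groups overlapped, with a difference of -0.064 (SE 0.097, limma adjusted p = 0.971). A second probe set of Sdha, with a mean signal of 20252, gave -0.16 without overlap (limma adjusted p = 0.955). Its signals were 20403, 21624 and 22083 in Trex1 WT and 19484, 17778 and 20140 in Trex1 KO. A dim one, with a mean signal of 339, gave -0.34, also without overlap (limma adjusted p = 0.954). Sdhb, the iron-sulphur subunit, had means of 34538 ± 3185 and 33257 ± 846 (SD, n = 3 each; difference -0.051, limma adjusted p = 0.977). Of the membrane anchors, Sdhc had signals of 14154, 14331 and 15008 in Trex1 WT and 12987, 12529 and 14543 in Trex1 KO. Each Trex1 KO animal was below its littermate (-0.12, -0.19 and -0.045), with a difference of -0.12 (SE 0.094, limma adjusted p = 0.955). A dimmer probe set of Sdhc, with a mean signal of 3619, gave -0.47 (unadjusted p = 0.012, limma adjusted p = 0.722). Sdhd had a difference of -0.022 (limma adjusted p = 0.992). The interval of all 4 subunits lay within 0.795-fold and 1.14-fold.

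As a description of the genes, apart from their signals, their promoters were searched for letters that nuclear regulators of mitochondrial genes are known to bind. Of the 83 genes 67 had promoters in the RefSeq table (GRCm38.p6), 72 in all, and the 250 bases before each start were read on both strands. The NRF1 motif (GCGCA, any base, then GCGC) stood in 12 of 72 (16.7%), against 3.74% of all 32851 promoters. The ETS motif CCGGAAG, which GABP binds, stood in 12 (16.7%), against 6.91%. The YY1 motif AAGATGGC stood in 1 (1.39%, against 1.56%) and the oestrogen-related receptor motif CAAGGTCA in 3 (4.17%, against 1.33%). A match is a description only, and overlaps between motifs were not removed. Shown are promoters of Sdha and Sdhd of complex II and Cox6a1, the widely expressed form of a complex IV subunit, all with matches in capitals, and of Cox7a1, the muscle form of another, with 0 matches. They lie at chr13:74350241-74350490 (minus strand), chr9:50603850-50604099 (minus), chr5:115348959-115349208 (minus) and chr7:30183921-30184170 (plus), and each is written 5′ to 3′ up to the base before the start.
Sdha: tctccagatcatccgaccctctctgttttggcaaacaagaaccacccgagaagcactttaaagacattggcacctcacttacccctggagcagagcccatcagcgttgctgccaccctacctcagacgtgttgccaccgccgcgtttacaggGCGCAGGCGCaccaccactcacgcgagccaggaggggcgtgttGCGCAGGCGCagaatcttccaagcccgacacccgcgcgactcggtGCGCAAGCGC
Sdhd: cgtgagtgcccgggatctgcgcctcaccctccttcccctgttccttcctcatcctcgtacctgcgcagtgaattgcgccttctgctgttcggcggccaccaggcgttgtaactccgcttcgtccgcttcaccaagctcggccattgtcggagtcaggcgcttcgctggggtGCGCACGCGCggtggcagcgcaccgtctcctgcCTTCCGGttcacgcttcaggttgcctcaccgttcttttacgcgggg
Cox6a1: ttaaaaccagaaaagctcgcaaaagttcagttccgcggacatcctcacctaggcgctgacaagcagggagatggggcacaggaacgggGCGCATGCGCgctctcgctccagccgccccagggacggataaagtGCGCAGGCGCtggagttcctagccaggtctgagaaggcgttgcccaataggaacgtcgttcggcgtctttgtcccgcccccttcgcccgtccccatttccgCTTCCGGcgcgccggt
Cox7a1: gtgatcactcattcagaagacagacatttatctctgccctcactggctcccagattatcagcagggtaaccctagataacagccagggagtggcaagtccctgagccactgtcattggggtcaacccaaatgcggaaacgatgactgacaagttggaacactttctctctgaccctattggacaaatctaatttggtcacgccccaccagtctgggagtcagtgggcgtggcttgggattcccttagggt
Sdha holds 3 NRF1 matches, Sdhd 1 NRF1 and 1 ETS match, and Cox6a1 2 NRF1 and 1 ETS match.

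Complex III hands electrons from ubiquinol to cytochrome c, and all 9 members lay above 20000. Their differences ran from -0.091 to 0.0075. Uqcrb, which helps form the ubiquinone site, gave 45848, 57033 and 58127 in the Trex1 WT arrays A, B and C and 51437, 50718 and 53919 in Trex1 KO. The Trex1 KO values lay inside the Trex1 WT range, as the 60 bright subunits did as a group (difference -0.037, SE 0.11, limma adjusted p = 0.987). The Rieske iron-sulphur protein Uqcrfs1 and the small subunits Uqcr11 and Uqcr10 had the smallest p of this complex, with differences of -0.066, -0.091 and -0.046 (limma adjusted p = 0.971, 0.967 and 0.984). Cyc1, the cytochrome that passes the electron on, had a difference of -0.013 (SE 0.10).

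Complex IV, cytochrome c oxidase, has tissue forms, and neither the muscle nor the widely expressed forms passed the test. The muscle forms Cox6a2, Cox7a1 and Cox8b had means of 37505 ± 4796, 36145 ± 3997 and 41215 ± 3932 in Trex1 WT and 37105 ± 2117, 34643 ± 1866 and 41556 ± 1468 in Trex1 KO (SD, n = 3). Their differences were -0.0088, -0.056 and 0.016 (limma adjusted p = 0.998, 0.975 and 0.995). The widely expressed forms Cox6a1, Cox7a2 and Cox8a had 14884 ± 1160, 42609 ± 4749 and 6297 ± 576 in Trex1 WT and 15168 ± 879, 42247 ± 1877 and 6096 ± 552 in Trex1 KO. Their differences were 0.029, -0.0070 and -0.047 (limma adjusted p = 0.989, 0.998 and 0.980). For the brightest probe set of each of the 6 the 95% interval lay within 0.814-fold and 1.19-fold. Another probe set of Cox6a2, with a mean signal of 28505, gave -0.21 with overlap of the groups (limma adjusted p = 0.955). Differences this close to 0 have no stable sign, and Cox6a2 and Cox7a2 were above 0 after quantile normalisation (0.023 and 0.0049) and Cox8b below 0 with median centring (-0.0071).

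Cox4i1, the common form of the regulatory subunit IV, gave 36940, 43700 and 46519 in the Trex1 WT arrays A, B and C and 39044, 39242 and 43242 in Trex1 KO, which overlapped (difference -0.060, SE 0.11, limma adjusted p = 0.974). Cox4i2, a paralog known from lung and from pericytes that is inducible by hypoxia, gave 218, 232 and 230 in Trex1 WT and 192, 134 and 148 in Trex1 KO. All Trex1 KO values lay below all Trex1 WT values, and the pair differences were -0.17, -0.73 and -0.58. The difference of -0.49 (SE 0.20, 95% interval 0.521-fold to 0.969-fold) had an unadjusted p of 0.034 but missed the threshold (limma adjusted p = 0.890, with the block 0.578).

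Cox7c, a small structural subunit of complex IV, had 2 probe sets annotated to it alone, both dim. The brighter gave 304, 452 and 227 in the Trex1 WT arrays A, B and C and 192, 230 and 231 in Trex1 KO. The other, with a mean signal of 41.8, was not tested. The 9 bright complex IV members had mean signals from 34483 to 43976. How well the dim probe sets report the Cox7c transcript was not tested. The brighter one was lower in Trex1 KO in pairs A (-0.62) and B (-0.93). It was about equal in pair C (0.02), so the groups overlapped. Its difference of -0.51 (SE 0.24, limma adjusted p = 0.927) was 0.26 with the Actb ratio as a covariate. Cox8c, a testis form, had a difference of -0.12 (limma adjusted p = 0.968). Cox6b2, another testis form, went opposite ways in pairs A (-1.05) and C (0.57).

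**Figure D4:**
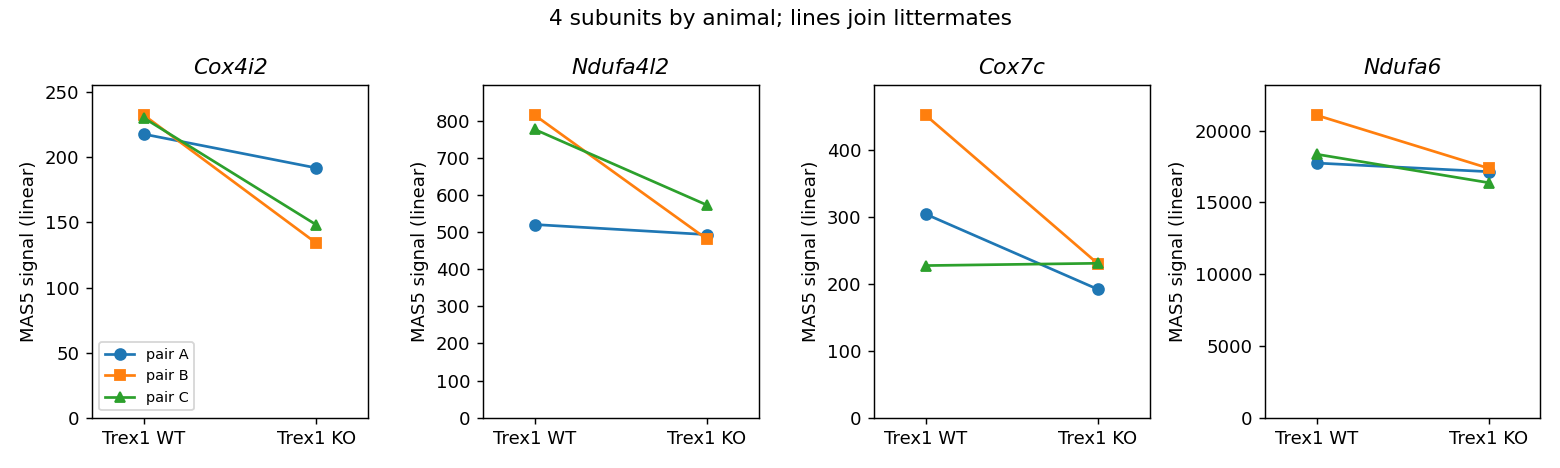
MAS5 signal on a linear axis from 0 for Cox4i2, Ndufa4l2, Cox7c and Ndufa6, the tested subunits with the smallest unadjusted p, in Trex1 WT and Trex1 KO, with lines joining the littermates of pairs A, B and C. The groups are apart for Cox4i2 and Ndufa6, and pair C of Cox7c is level.

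Cox4i2 and Ndufa4l2 are known as markers of mural cells, so a list of 11 such markers was read, chosen after these values were seen. Of the 11, 8 had differences below 0 and 0 passed, with a median of -0.16, and none was at 0. Their summed signal was 42826, 55398 and 56380 in the Trex1 WT arrays A, B and C and 38808, 43257 and 46686 in Trex1 KO. Cspg4, a proteoglycan of pericytes, had the smallest p (difference -0.48, limma adjusted p = 0.810). The pericyte receptor Pdgfrb had -0.39 (limma adjusted p = 0.852), and Higd1b, another pericyte marker, had 0.017 (limma adjusted p = 0.997). The groups did not overlap for 4 markers that were lower in Trex1 KO (Cspg4, Pdgfrb, Abcc9 and Notch3), against 5.83% of all tested genes. Nor did they for 2 that were higher, against 5.06%. These were Vtn (0.38, limma adjusted p = 0.881) and the smooth muscle gene Tagln (0.43, limma adjusted p = 0.871). An unadjusted p under 0.05 (limma) was found for 4 of the 11, against 5.36% of tested genes. In all 3 pairs 7 were lower and 2 higher, against 17.8% and 13.1%. The differences ran from -0.67 for smooth muscle actin, Acta2, to that of Tagln. Of 12 hypoxia-response genes, also chosen afterwards, 8 were below 0, with a median of -0.018. The part of these cells in the values of Cox4i2 and Ndufa4l2 was not tested.

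Complex V makes ATP, and its 17 subunits had differences from -0.11 to 0.02. The catalytic head and central stalk (Atp5a1, Atp5b, Atp5c1, Atp5d and Atp5e) had a median of -0.045, the proton-carrying c-ring genes (Atp5g1, Atp5g2 and Atp5g3) -0.028, the peripheral stalk (Atp5pb, Atp5h, Atp5j and Atp5o) -0.047 and the 5 small membrane subunits -0.049. Each of these medians was above 0 in pair A and below 0 in pairs B and C. Atp5j, coupling factor 6 of the stalk, gave 26435, 32870 and 29547 in the Trex1 WT arrays A, B and C and 25874, 27102 and 29355 in Trex1 KO. Trex1 WT B was the highest of the 6, and the groups overlapped (difference -0.11, SE 0.11, limma adjusted p = 0.959). Atp5l and Atp5e followed the same course, with differences of -0.10 and -0.10 and pair B values of -0.27 and -0.28 (limma adjusted p = 0.961 and 0.968).

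Other probe sets of the same genes also gave no call. Besides the brightest, 77 probe sets of 48 subunit genes were tested, and 0 passed. Of the 77, 3 had an unadjusted p under 0.05 (limma). The Trex1 KO animals lay all below Trex1 WT for 6 and all above for 1, against 5.83% and 5.06% of all tested genes. Mean signals of at least 1000 were found for 59, with a median difference of -0.064. Of the 59, 3 lay more than 0.25 from the gene's brightest probe set, all of them lower in Trex1 KO. They were for Atp5o (-0.36, brightest -0.024), Cox6c (-0.38, brightest -0.027) and Sdhc (-0.47, brightest -0.12). Below 1000, 10 of 18 lay that far from it. A further 10 probe sets name a subunit together with another gene or pseudogene and were not used here, which leaves out Ndufa11 and Ndufs6.

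Genes that build or serve the chain were similarly level. Of the assembly factors, 0 of 16 for complex I, 0 of 4 for II, 0 of 5 for III, 0 of 20 tested for IV and 0 of 4 for V passed the limma test, with medians of -0.045, -0.057, -0.027, -0.065 and -0.056. Sdhaf2, which helps attach the flavin to Sdha, lay above 0 without overlap, with means of 2615 ± 123 and 3062 ± 271 (SD, n = 3; difference 0.22, limma adjusted p = 0.927). The members with the smallest p for the other complexes were Acad9 (-0.17), Uqcc3 (0.11), Coa8 (-0.18) and the ATP synthase inhibitor Atpif1 (-0.095), with limma adjusted p of at least 0.955. ND5, the only mitochondrially encoded subunit with a single-symbol probe set here, gave 46742 ± 5820 and 45688 ± 3250 (difference -0.028, limma adjusted p = 0.991). Of 16 genes of electron carriers and ubiquinone synthesis 0 passed (median -0.056), and Coq8b had the smallest p (0.36, limma adjusted p = 0.955).

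Of 17 citric acid cycle and pyruvate dehydrogenase genes 0 passed (median -0.062). Suclg2, a subunit of succinyl-CoA ligase, had means of 10260 ± 621 and 8944 ± 487 without overlap (difference -0.20, limma adjusted p = 0.934). Of 18 regulators of mitochondrial biogenesis 0 passed, with a median of -0.085 and 14 below 0. The coactivator Ppargc1a gave 3399, 2266 and 3212 in the Trex1 WT arrays A, B and C and 3393, 2314 and 1700 in Trex1 KO, so that pairs A and B were level and pair C was lower (difference -0.29, limma adjusted p = 0.955). Tfb2m, a mitochondrial transcription factor, had the smallest p (0.33, limma adjusted p = 0.955).

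Of 76 mitochondrial ribosomal proteins 0 passed (median -0.026), and 1 passed with littermate pairs as a block. This was Mrpl27, with signals of 4409, 4897 and 4581 in the Trex1 WT arrays A, B and C and 6068, 7191 and 6916 in Trex1 KO. The groups did not overlap, and the difference of 0.53 (SE 0.10) had a limma adjusted p of 0.105, and 0.0277 with the block. Of 48 tested cytosolic ribosomal proteins 0 passed (median -0.038), with Rpl3l, the muscle form of Rpl3, at 9516 ± 94.3 and 7620 ± 95.2 (difference -0.32, limma adjusted p = 0.442).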

How the data were processed

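Biotin-labelled total RNA of 6 ventricles was hybridised to 1 array each. The deposited values are the authors' MAS5 intensity per probe set on a linear scale, per the submitters' processing notes; neither version nor settings were given in the sources used here. Each array had a 2% trimmed mean of 500.0. Groups and pair letters come from the sample titles, and the design text names the littermates. Deviations from group means correlated at 0.151, 0.192 and 0.147 within pairs (across probe sets) and from -0.161 to 0.0101 otherwise.

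Signals were transformed to log2(signal + 16). Probe sets reaching the 40th percentile of mean log2 value (6.13, a signal of 53.8) were tested: 27022 of 45037 that are not controls. Differences were fitted over all of them with limma 3.58.1 in R 4.3.3 (lmFit, eBayes with intensity trend, 4 residual degrees of freedom), with Benjamini-Hochberg adjustment, two-sided, threshold 0.05. The littermate block was the alternative. The pipeline was tested on simulated data. Background shares are over 12808 genes by their brightest single-symbol probe set. Symbols are the platform annotation's. P-values reflect only how these animals vary, and the number of arrays limits precision.

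Named genes were those passing either fit, the 3 smallest p per complex and the 3 smallest above a signal of 20000. The isoform pairs of complex IV and the genes of complex II were named too. So was the smallest p of each list of mitochondrial or ribosomal genes and of the mural list, but not of the other cell type lists or the hypoxia list. Ndufs1, Ndufa4, Ndufb1, Uqcrb, Cyc1, Cox6b2, Cox7b2, Ndufb4, Atp5o, Cox6c, Ppargc1a, C1qa, Fcgr1, Myl7, Sln and the mural markers other than Cspg4 were added after their values were seen. Members and lists were chosen with earlier results of these data known.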

Additional observations from a re-analysis of the deposited data

How the results depend on the processing

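No subunit passed the limma test under any alternative, the littermate pair as replicate block included (0 higher and 0 lower), and the lowest limma adjusted p of the 25 named subunits was 0.365, for Cox7c without Trex1 WT C. Of 475 values of these subunits under alternatives, 437 kept their sign and 38, all of differences that did not pass, changed it; 11 subunits never did. Changes after quantile normalisation were Cox6a2 (0.023) and Cox7a2 (0.0049), and with median centring Cox8b (-0.0071). With the Actb ratio as a covariate they were Atp5e (0.00062), Atp5j (0.0014), Atp5l (0.0025), Cox7c (0.26), Ndufb2 (0.0047) and Uqcr10 (0.026), and over all probe sets of a gene Cox6a1 (-0.031) and Cox8c (0.10). Leaving out single animals or pairs gave ranges from -0.22 to 0.0055 for Atp5e, -0.16 to 0.010 for Cox4i1, -0.078 to 0.11 for Cox6a1, -0.12 to 0.063 for Cox6a2, -0.10 to 0.053 for Cox7a2, -0.12 to 0.030 for Cox8a, -0.071 to 0.098 for Cox8b, -0.091 to 0.043 for Sdhd and -0.16 to 0.051 for Uqcr10. Counts of subunits without overlap ranged from 3 to 47 lower and from 0 to 1 higher in the same settings, fewer animals making such separation easier. They were 8 lower after quantile normalisation and 6 lower and 1 higher over all probe sets, where 3 were above 0 in all pairs (2 after quantile normalisation). For the counts over all probe sets and those in all pairs, shares over all tested genes are not given. The median of all subunits ran from -0.13 (without Trex1 WT A) to 0.0092 (without pair B), within the spread of the pair medians. The dimmer members had a median of -0.28 when split at 1000, an alternative added after the data were seen. The cause of these changes was not tested. With the Actb ratio as a covariate, overlap and signs by pair have no value.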
